A study of Caenorhabditis elegans with 6 samples.

Results

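The pair described here is miR-79-3p and miR-75-3p (listed as cel-miR-79-3p and cel-miR-75-3p), 2 of the 437 mature microRNAs (miRNAs) listed in whole Caenorhabditis elegans, found by name in the count file of every library. Both passed the filter on low counts, which kept 208 miRNAs. The study asked how RNA changes in worms exposed to cadmium. Wild-type N2 animals were placed at the L4 larval stage on medium containing cadmium chloride at 60 µmol/L at 20 °C with OP50 bacteria as food (3 libraries), and untreated N2 animals served as controls (3 libraries). The strain is the same in both groups. The stage and food above are those described for the exposed animals, and the temperature is given for the cadmium libraries only. The length of the exposure is not given in the sources used here. The labels do not say whether libraries of a group came from separate cultures, so p-values measure the spread between these libraries, which may be technical.

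A miRNA is cut from a hairpin precursor that can yield a mature strand from its 5p and its 3p side, and it represses messenger RNAs through pairing of its seed, a short stretch near its start. miR-75 and miR-79 are grouped as one seed family in nematodes. In C. elegans miR-79 is known to act in the epidermis, where it represses sqv-5, a chondroitin synthase, and sqv-7, a nucleotide sugar transporter of proteoglycan synthesis, and its loss disturbs the migration of neurons. miR-79 is related to the conserved miR-9 family. The libraries are of whole worms and do not resolve tissues, so the epidermal expression is background and was not tested.

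The hairpins lie apart in the genome. In the Ensembl release 115 annotation of WBcel235, the build that the submitters' processing notes also name, mir-79 (WBGene00003307) occupies chromosome I, 9332946 to 9333043, on the plus strand. It is in no protein-coding gene: cbl-1 ends 2018 bases to its left, and lin-41, which encodes a developmental timing protein, lies 1757 bases to its right on the opposite strand, with its 3' end towards mir-79. The non-coding RNA gene C12C8.6 is annotated across it on the opposite strand. mir-75 (WBGene00003303) occupies chromosome X, 2372453 to 2372549, plus strand, between T24D8.6, 6463 bases away, and F47G3.3, 3436 bases away. Both 3p strands are annotated as 22 bases long. Their counts are numbers of reads, and whether the library preparation captured both strands equally was not tested. No other tested miRNA had the same counts as either of them in all libraries.

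Library totals ranged from 1640693 to 3917414 counts, and levels below are CPM, counts relative to the library size, after scaling of that size by the trimmed mean of M-values (TMM-scaled CPM). The miR-35 family, whose 8 members mark embryos and the germline, all passed the test as lower, against 12% of all tested miRNAs. Their summed levels were 17132 to 29405 TMM-scaled CPM in cadmium libraries and 63548 to 109928 in control libraries. In bulk samples, fewer cells of a type and less RNA per cell cannot be told apart.

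miR-79-3p rose under cadmium, by 1.70-fold, and was the only one of the pair to pass the test. It had 1324, 1606 and 1378 counts in the 3 cadmium libraries, against 435, 917 and 1085 in the 3 control libraries. On the scaled level this was 376, 475 and 615 TMM-scaled CPM in cadmium libraries, against 232, 354 and 275 in control libraries. Every cadmium library lay above every control library, and the closest were cadmium replicate 1 and control replicate 2. The group levels were 489 ± 121 TMM-scaled CPM in cadmium and 287 ± 61.8 in control libraries (SD, n = 3 each). The log2 fold change was 0.76 (SE 0.25, 95% interval 0.22 to 1.31), and the quasi-likelihood test of edgeR gave an adjusted p of 0.0475 over all 208 miRNAs. Of those, 9.62% were called higher, and for 17.8% the cadmium libraries all lay above the control libraries.

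The call of miR-79-3p was close to the threshold of 0.05. By p it was the last of the 45 miRNAs called, and the next in order, miR-246-3p, had an adjusted p of 0.0521. It missed the threshold when cadmium replicate 2 (adjusted p 0.0941), cadmium replicate 3 (0.198), control replicate 1 (0.149) or control replicate 3 (0.159) was left out, and passed without cadmium replicate 1 (0.0228) or control replicate 2 (0.0398). Scaling to total counts gave a log2 fold change of 0.56 and an adjusted p of 0.12. That scaling moved the median over the 208 miRNAs to −0.16, against 0.0039 with TMM. Whether scaling had a part in the rise of miR-79-3p was not tested. Of the calls, 9 of 39 were higher with total counts and 20 of 45 with TMM. Without the miR-35 family in the scaling and the fit, the change was 0.77 with an adjusted p of 0.0569.

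**Figure D1:**
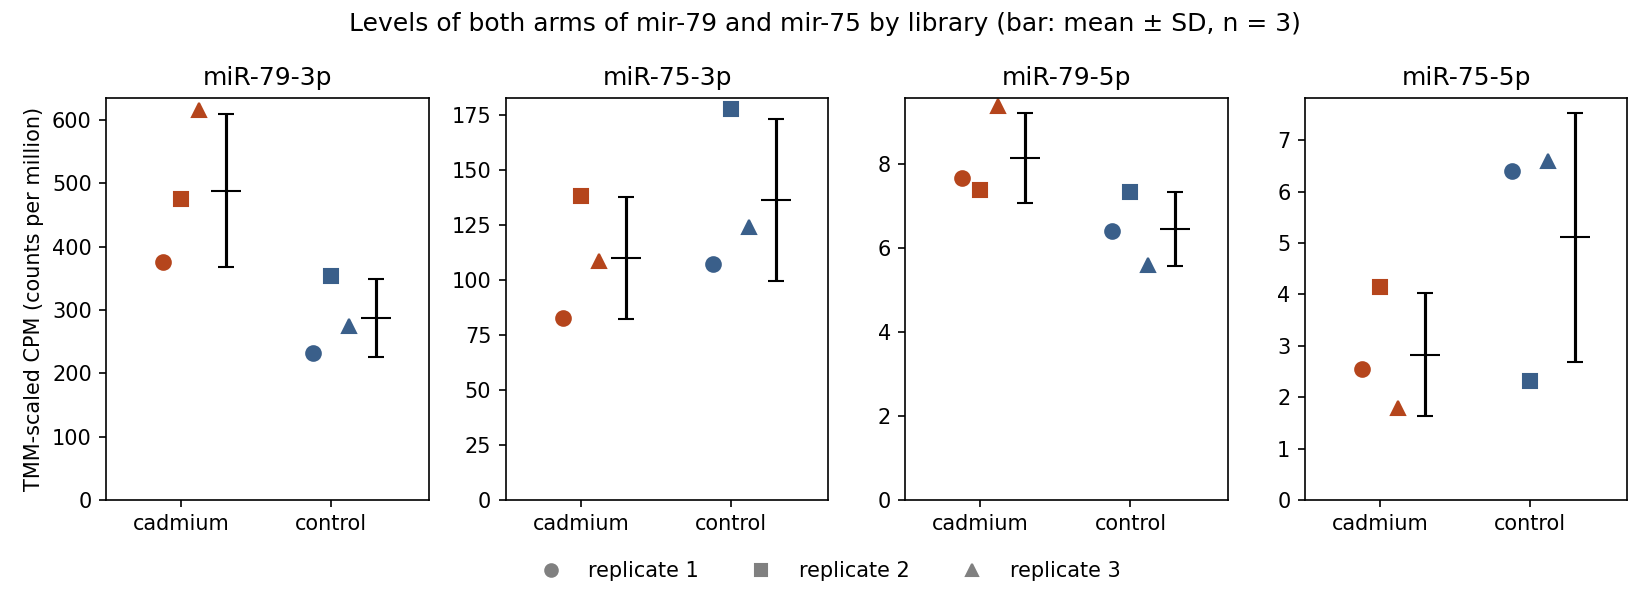
Level of each arm of mir-79 and mir-75 in TMM-scaled CPM, with cadmium libraries left of control libraries, 1 symbol per replicate number and bars for mean ± SD (n = 3 each). miR-79-3p sits at 376 to 615 in cadmium libraries and 232 to 354 in control libraries, while the miR-75-3p groups overlap.

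miR-75-3p had no change that passed the test, and its groups overlapped. It had 292, 468 and 243 counts in the cadmium libraries, against 201, 461 and 490 in the control libraries. The scaled levels were 82.8, 138 and 109 TMM-scaled CPM in cadmium libraries, against 107, 178 and 124 in control libraries. The second library was the highest of each group, and only cadmium replicate 1 lay below all control libraries. Group levels were 110 ± 27.8 TMM-scaled CPM in cadmium and 137 ± 36.9 in control libraries (SD, n = 3 each). The log2 fold change was −0.31 with an SE of 0.28, and edgeR gave an adjusted p of 0.46. The 95% interval, −0.92 to 0.29, runs from 0.527-fold to 1.23-fold. The value was nearer to 0 without cadmium replicate 1 (−0.12) or control replicate 2 (−0.089). It was farther from 0 without cadmium replicate 2 (−0.51), with total-count scaling (−0.52, adjusted p 0.192) and with limma on the deposited CPM at a pseudocount of 1 (−0.50) or 0.1 (−0.51). The fitted change was below 0 in all 17 settings tried.

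**Figure D2:**
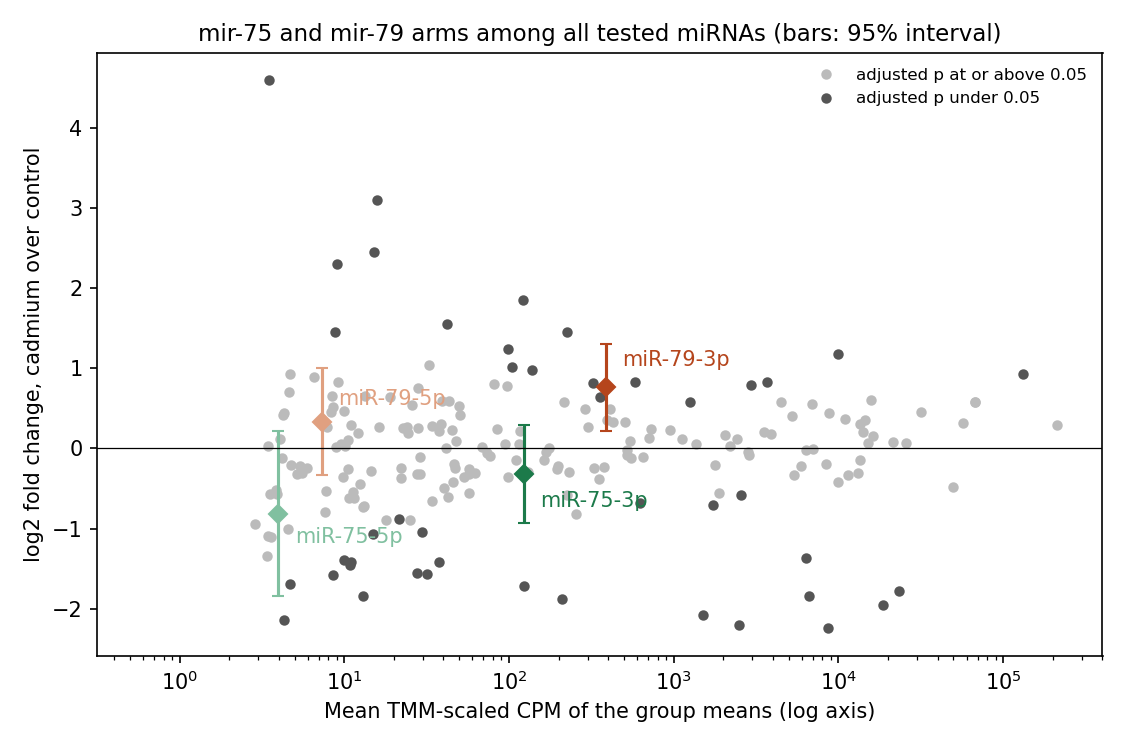
Log2 fold change, cadmium over control, against the mean TMM-scaled CPM (log axis) of the 208 tested miRNAs, with dark points for an adjusted p under 0.05 and 95% interval bars on the arms of mir-79 and mir-75. The interval of miR-79-3p (0.22 to 1.31) lies above 0, and those of miR-75-3p and both 5p arms include 0.

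The balance of the pair stood apart between the groups, with more miR-79-3p for each miR-75-3p under cadmium. miR-79-3p had the higher count in each of the 6 libraries. For each miR-75-3p count there were 4.53, 3.43 and 5.67 counts of miR-79-3p in cadmium libraries, against 2.16, 1.99 and 2.21 in control libraries. The control ratios lay close together and every cadmium ratio was above them. Scaling cannot move this ratio, because both counts come from one library. The log2 ratio was 2.15 ± 0.36 in cadmium and 1.08 ± 0.08 in control libraries (SD, n = 3 each), a difference of 1.07. The two-sided exact permutation test gave p = 0.1, the smallest that 3 libraries against 3 allow, so this design cannot reach 0.05. With 1 library left out, the difference ranged from 0.90 to 1.26.

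The groups' ratios were also separate for 40.4% of the 21528 pairs that can be formed from the tested miRNAs, which share members with each other. The median absolute difference over those pairs was 0.68 on the log2 scale. As a share of the pair's counts, miR-79-3p made up 81.9%, 77.4% and 85.0% in cadmium libraries, against 68.4%, 66.5% and 68.9% in control libraries. The lowest bound of the 95% Wilson intervals in cadmium libraries was 75.6% and the highest in control libraries was 71.9%. These intervals cover counting error only. The shares rest on 1616, 2074 and 1621 counts of the pair in cadmium libraries, and on 636, 1378 and 1575 in control libraries.

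The summed level of the pair was 458, 613 and 724 TMM-scaled CPM in cadmium libraries, against 340, 532 and 400 in control libraries. Control replicate 2 lay above cadmium replicate 1, so the groups overlapped. The sums averaged 598 ± 133 in cadmium and 424 ± 98.6 in control libraries (SD, n = 3 each). The log2 difference of 0.50 had a two-sided exact permutation p of 0.2, where 0.1 is the smallest possible. It was 0.30 with total-count scaling (exact p = 0.3).

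**Figure D3:**
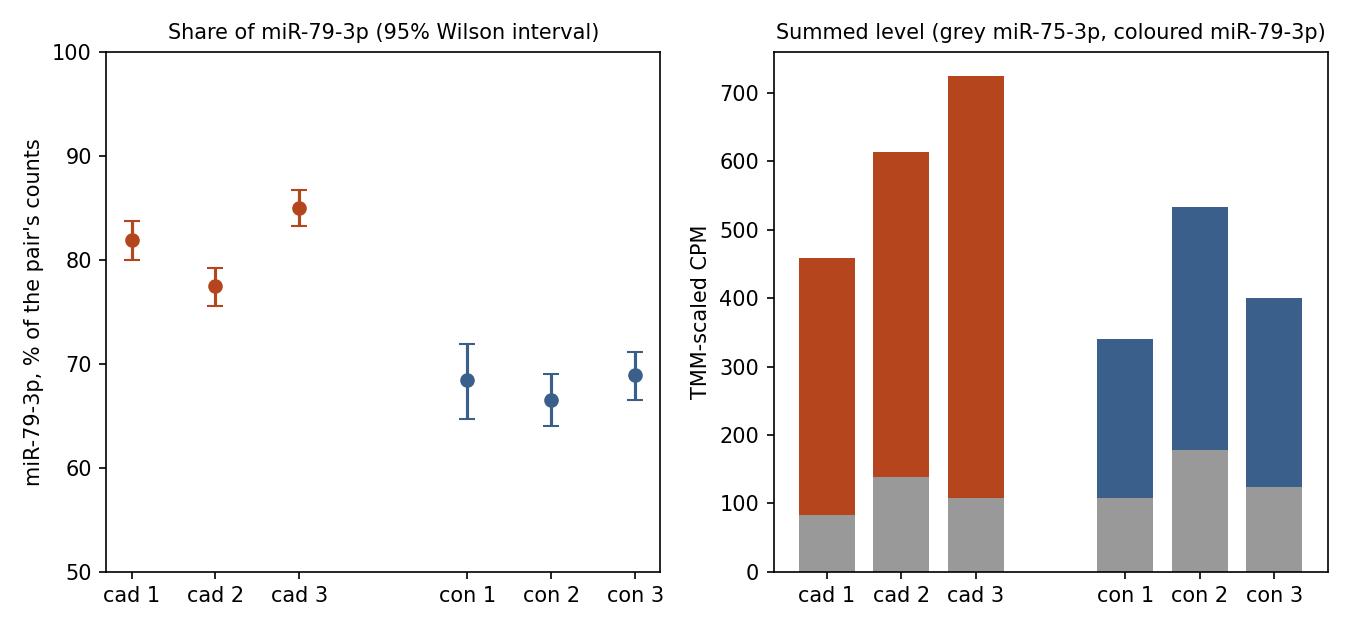
Left, miR-79-3p as a percent of the counts of the pair in each library, with 95% Wilson intervals for counting error and an axis from 50 to 100%. Right, summed TMM-scaled CPM of miR-75-3p (grey) and miR-79-3p (coloured). Shares are 77.4% to 85.0% in the cadmium (cad) libraries and 66.5% to 68.9% in the control (con) libraries, and the sums overlap.

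Among all tested miRNAs both had middling levels. By mean level over the 6 libraries miR-79-3p was number 68 of 208 and miR-75-3p number 89. Counted from the most abundant, miR-79-3p ranked 70, 64 and 59 in cadmium libraries, against 77, 70 and 74 in control libraries. miR-75-3p ranked 97, 90 and 94 in cadmium libraries, against 90, 83 and 89 in control libraries. The 2 thus stood 26 to 35 places apart in cadmium and 13 to 15 places apart in control libraries. Their order was the same in each library. The nearest neighbours in level differed from each member in mean by less than the SD over the 6 libraries, which spans both groups. miR-793, with 392 ± 79.1 TMM-scaled CPM over 6 libraries, and miR-785-3p, with 379 ± 58.0, stood on either side of miR-79-3p at 388 ± 140. miR-63-5p (408 ± 80.9) and miR-46-5p (357 ± 92.6) were the next above and below. miR-75-3p, at 123 ± 32.7, stood between miR-62 (130 ± 24.7) and miR-77-5p (123 ± 79.2), with miR-794-5p (139 ± 65.2) and miR-247-3p (121 ± 81.4) beyond them.

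Replicate spread was ordinary for this table. The within-group SD of log2(TMM-scaled CPM + 1) was 0.33 for miR-79-3p and 0.37 for miR-75-3p, against a median of 0.31 over the 208 tested miRNAs. The absolute log2 fold change of miR-79-3p was larger than that of 73.1% of them, and that of miR-75-3p larger than that of 40.4%.

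Most reads of both hairpins came from the 3p arm. For mir-79 the 3p arm held between 97.3% and 98.5% of the counts of both arms in the 6 libraries, and for mir-75 between 94.4% and 98.7%. miR-79-5p had 27, 25 and 21 counts in cadmium libraries, against 12, 19 and 22 in control libraries. Its scaled level was 8.14 ± 1.08 TMM-scaled CPM in cadmium and 6.44 ± 0.88 in control libraries (SD, n = 3 each). The cadmium values lay narrowly above the control values (7.39 against 7.34 TMM-scaled CPM for the closest), but in the deposited CPM the groups overlapped, at 8.05, 6.61 and 8.14 in cadmium and 7.31, 7.83 and 5.62 in control libraries. The log2 fold change of 0.34 (SE 0.30) had an edgeR adjusted p of 0.471, and was 0.15 with total-count scaling. miR-75-5p had 9, 14 and 4 counts in cadmium libraries, against 12, 6 and 26 in control libraries. The groups overlapped, and its log2 fold change of −0.81 (SE 0.47) had an edgeR adjusted p of 0.248.

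The 5p to 3p ratio was compared over the 63 hairpins with enough counts on both arms, of which 3.17% were called. For mir-79 the log2 ratio was −5.86 ± 0.23 in cadmium and −5.42 ± 0.26 in control libraries, and the difference of −0.43 (SE 0.32) had a limma adjusted p of 0.661. For mir-75 it was −5.24 ± 0.45 in cadmium and −4.79 ± 1.18 in control libraries, and the difference of −0.45 (SE 0.54) had a limma adjusted p of 0.791. The mir-75 difference was −0.19 without cadmium replicate 3, −0.059 without control replicate 1 and −1.13 without control replicate 2 (limma adjusted p 0.0985). The mir-79 difference was −0.28 without control replicate 1. Neither passed the test, and the groups overlapped for both hairpins. The 5p strands had 4 to 27 counts in a library, and 3 counts, taken as the floor, equal 0.761 to 1.60 TMM-scaled CPM across the libraries.

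As an epidermal list, 5 miRNAs that time the development of epidermal seam cells were set beside the pair. They were lin-4-5p, let-7-5p, and the let-7 relatives miR-48-5p, miR-84-5p and miR-241-5p. The libraries are of whole worms, so the levels of these miRNAs do not measure the epidermis alone. In edgeR's quasi-likelihood test 0 of 5 passed the threshold over all miRNAs, where 21.6% of the 208 did. At an unadjusted p under 0.05 there were 3, against 35.1% of all tested miRNAs. DESeq2 called 2, against 28.8% of all. Without cadmium replicate 1 edgeR called 3, against 24.5% of all. Of the 16 alternative settings, 12 called 0 of the 5. Their median log2 fold change was 0.56, against 0.0039 over all tested miRNAs. It was 0.31 without cadmium replicate 2, where the median of all was 0.0088, and 0.34 with total-count scaling, where that of all was −0.16. Fitted changes ranged from 0.16 for lin-4-5p, which turned to −0.039 with total-count scaling and to −0.0034 without control replicate 2, to 0.61 for miR-48-5p (adjusted p 0.0521). Summed, the 5 had 29121 to 44645 TMM-scaled CPM in cadmium and 20681 to 28261 in control libraries. The largest part of these sums was miR-48-5p, with a mean of 19155 in cadmium and 12571 in control libraries. Taken singly, 2 of the 5 had all cadmium libraries above the control libraries, against 17.8% of all tested miRNAs. None of the markers of muscle (miR-1-3p), intestine (miR-60-3p) or neurons (lsy-6-3p, miR-124-3p and miR-791-3p) was called, at an unadjusted p under 0.05 or by DESeq2 either. Whether the tissue makeup of the worms had a part in the rise of miR-79-3p was not tested.

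The miRNAs whose profiles were most like each member were found by the root mean square difference between log2(TMM-scaled CPM + 1) profiles over the 6 libraries, each centred on its own mean. For miR-79-3p they were miR-47-5p (0.12), miR-65-3p (0.15) and miR-58a-3p (0.16). miR-47-5p had 261 ± 43.0 TMM-scaled CPM in cadmium and 174 ± 29.4 in control libraries, and its log2 fold change of 0.58 (SE 0.23) had an adjusted p of 0.0923 in edgeR's test. miR-58a-3p, a member of the bantam-related miR-58 family, was called (0.93, SE 0.29, edgeR adjusted p 0.0431) although its groups overlapped. It was highest in cadmium replicate 3, as was miR-79-3p, which a choice by likeness over the same libraries favours. For miR-75-3p the most alike were miR-72-3p (0.15), miR-60-3p (0.21) and miR-246-3p (0.21), none of which passed edgeR's test. The seed partner was not among them. Among the 208 tested miRNAs, miR-79-3p came 132nd in likeness to miR-75-3p, with a difference of 0.57. These profiles span both groups, so this is not separate from the shift in the pair's ratio.

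**Figure D4:**
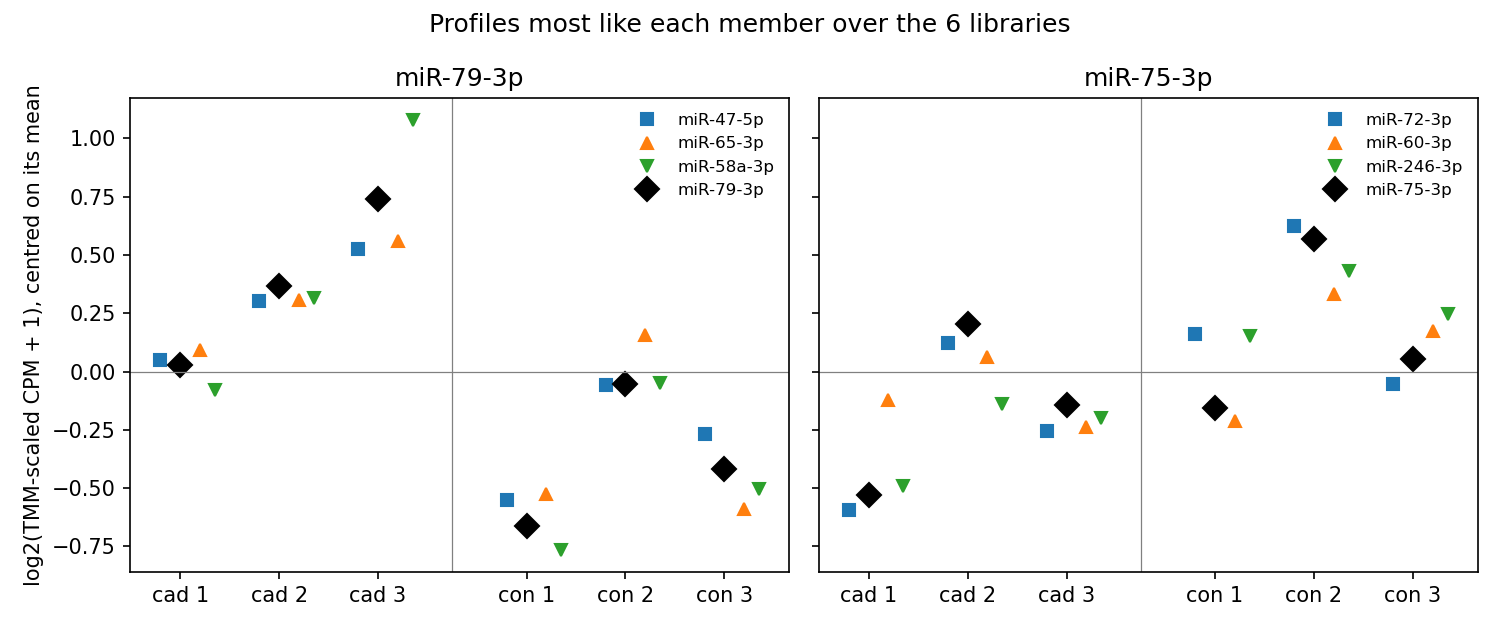
Centred log2(TMM-scaled CPM + 1) of miR-79-3p (left) and miR-75-3p (right), as black diamonds, with the 3 most alike miRNAs in the cadmium (cad) and control (con) libraries. miR-79-3p and its 3 are all highest in cadmium replicate 3, and miR-75-3p and its 3 are all highest in control replicate 2. The 3 were chosen for likeness over these same libraries, which favours a shared highest library.

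Across 16 other settings the direction of miR-79-3p stayed the same while its call did not, and 6 of them kept it past the threshold. Those 6 were the DESeq2 Wald test (adjusted p 0.0165), DESeq2's size factors within edgeR, the robust fit, the fit with no filter, and the fits without cadmium replicate 1 or control replicate 2. Over all 16 the log2 fold change lay between 0.56 and 0.95.

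**Figure D5:**
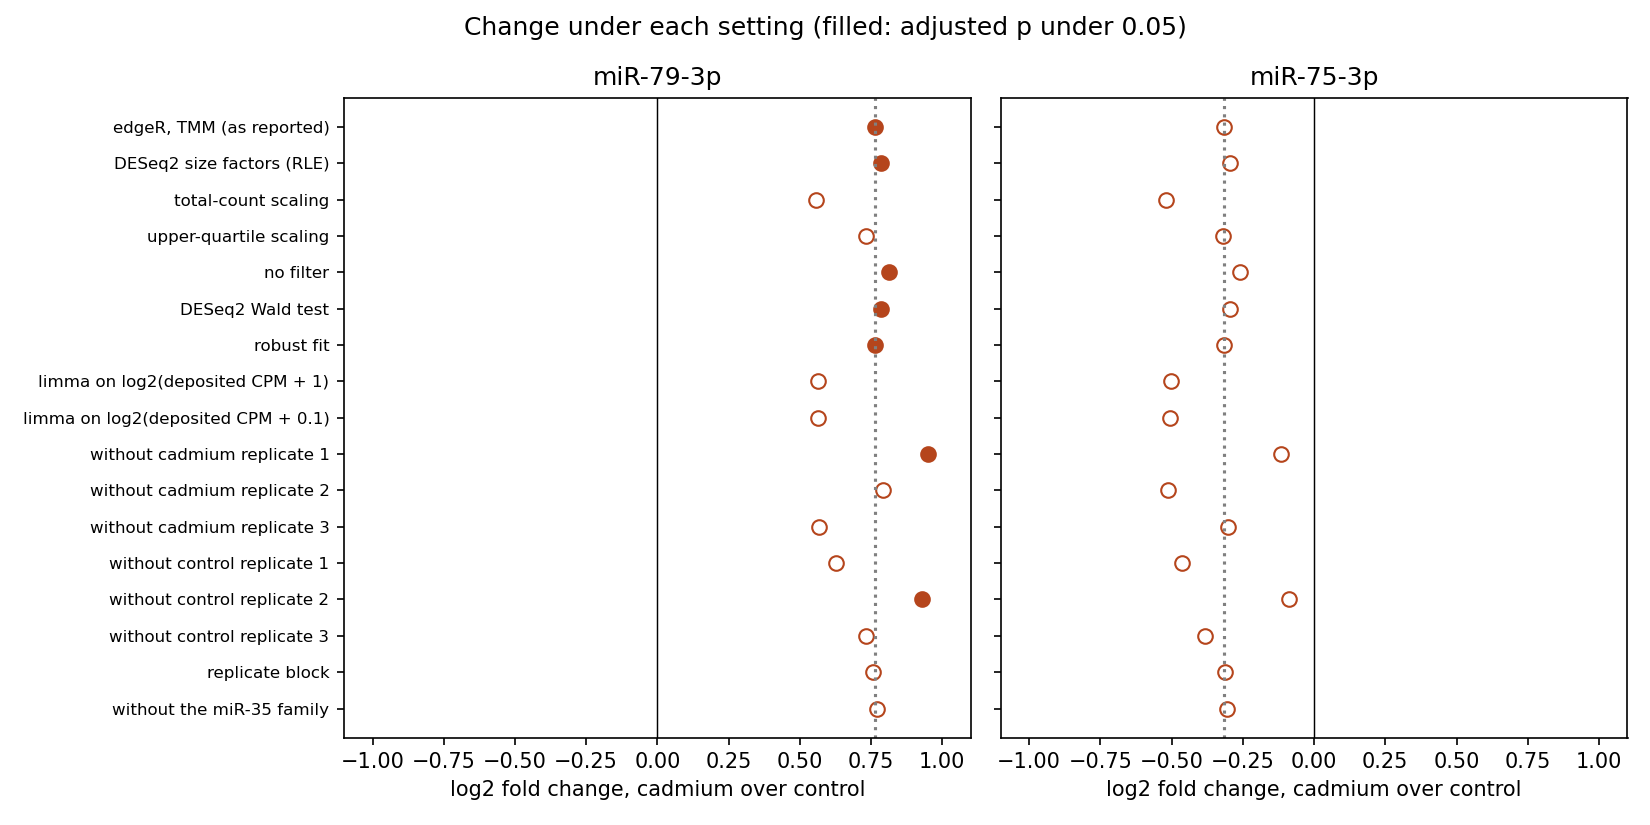
Log2 fold change of miR-79-3p (left) and miR-75-3p (right), cadmium over control, under the reported fit (dotted line) and 16 other settings, filled where the adjusted p was under 0.05. All values of miR-79-3p lie between 0.56 and 0.95 and 7 of the 17 points are filled, and none is for miR-75-3p.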

How the data were processed

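RNA was isolated with TRI reagent and made into libraries with a New England Biolabs small RNA kit for Illumina NextSeq sequencing, per the labels' protocols. The deposited count files hold raw counts of reads for each mature miRNA, with 1 file for each library. CPM values, also deposited, were scaled by the authors to each library's total over all listed miRNAs, and equalled values recomputed from the counts. The submitters' processing notes list FastQC 0.11.9, cutadapt 3.4, HISAT2 2.2.1, StringTie 2.1.5, Bowtie2 2.4.2, DESeq2, edgeR and WBcel235, without roles. How reads matching several miRNAs were counted is not given in the sources used here. A further 12 columns of per-sample values matched no sample title and were not used.

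In R 4.3.3, edgeR 4.0.16 filtered the counts (filterByExpr, 208 of 437 kept, with at least 99.985% of each library's counts), scaled them by TMM and fitted a quasi-likelihood model of cadmium against control to all 6 libraries. P-values were adjusted over 208 miRNAs (Benjamini-Hochberg, threshold 0.05). Fitted changes used a prior count of 0.125. Single quantities were compared by exact permutation. Arm ratios (pseudocount 0.5, mean of at least 10 counts per arm) were fitted with limma 3.58.1. DESeq2 1.42.0 was an alternative. The edgeR and limma fits were also run on simulated data, drawn for edgeR with the spread fitted to these libraries. The DESeq2 fit was not. The labels give no batch. Named miRNAs were the pair, their 5p arms, the 3 most alike profiles, the 2 neighbours on each side in level, and the epidermal list. Markers of other tissues, the members' genomic neighbours and miR-246-3p, next to the threshold, are named beside them. Members and lists were chosen with earlier results of these data known.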

Additional observations from a re-analysis of the deposited data

How the results depend on the processing

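For miR-79-3p the log2 fold change kept its direction in all 16 alternatives but missed the threshold in 10. Among these it was 0.56 with total-count scaling, 0.73 with upper-quartile scaling, 0.56 with limma on log2 of the deposited CPM at a pseudocount of 1 and 0.56 at one of 0.1, and 0.77 without the miR-35 family. With 1 library left out it ran from 0.57 to 0.95, and 2 of 6 such fits passed. The cause was not tested. miR-75-3p, both 5p arms and both arm ratios were not called under any alternative that gave a value. miR-75-5p was not tested without control replicate 3, where it failed the filter, and its arm ratio could not be had there or at a minimum of 50 counts, nor could that of mir-79 at that minimum. The ratio and the sum of the pair kept their direction throughout, but their designs cannot pass 0.05.

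The number of called miRNAs, 45, was 73 at an unadjusted p and lay between 22 and 52 when single libraries were left out. Calls on the 5 miRNAs of the epidermal list, 0 as reported, were 1 with DESeq2 size factors, where 52 of all 208 were called. They were 3 without a filter (56 of all 360) and 2 with DESeq2 (60 of all 208). Leaving out cadmium replicate 1 gave 3 calls, and leaving out any other single library gave 0. In these fits 22 to 52 were called over all tested miRNAs. The change of lin-4-5p turned to −0.039 with total-count scaling and lay between −0.0034 and 0.40 when single libraries were left out.

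Replicate numbers are shared by the groups, but libraries of the same number did not deviate from their groups together (correlations of −0.04, −0.30 and −0.32). These 3 correlations cannot settle whether the libraries were paired. With the replicate number as a block, miR-79-3p had a log2 fold change of 0.76 (adjusted p 0.0983), miR-75-3p −0.31 and the number of calls was 17. The paired log2 ratio difference was 1.07 (exact sign-flip permutation p = 0.25, the smallest that 3 pairs allow). miR-79-3p had at least 435 counts in each library and the 5p arms had 27 or fewer. How depth affects these calls was not tested.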

Other observations

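The hairpins nearest to mir-75 are mir-73 and mir-74, on the same strand of chromosome X and 3590 and 3314 bases away, and their values were looked up after the annotation was read. miR-73-3p had 4797, 7166 and 6918 TMM-scaled CPM in cadmium libraries, against 6990, 5782 and 6283 in control libraries. miR-74-3p had 471, 492 and 550 TMM-scaled CPM in cadmium libraries, against 352, 693 and 552 in control libraries. The groups overlapped for both. Their log2 fold changes were −0.01 (SE 0.20, adjusted p 0.965) and −0.08 (SE 0.25, adjusted p 0.852) in edgeR's quasi-likelihood test. The level of miR-73-3p in reads was thus far above that of miR-75-3p. Neither neighbour passed the test, and of all 208 tested miRNAs 163 did not pass it either. No other miRNA gene lies within 10 kb of mir-79.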
